A study of Mus musculus with 6 samples.

Results

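De novo lipogenesis, the making of fatty acids from carbohydrate-derived carbon, was followed through 10 of the 31053 genes measured in stromal vascular cells of mouse inguinal white adipose tissue (iWAT), the subcutaneous depot of the groin. The genes were taken by their symbols alone: Acly, Acaca, Fasn, Elovl6, Scd1, Scd2, Me1, Srebf1, Mlxipl and Thrsp, and their levels were read in each cell class and library. The mice were C57BL/6 males with no engineered allele named in the labels, and were young (9 weeks) or aged (57 weeks). All of them were first adapted to thermoneutrality (TN, 30 °C) and were then kept at TN, moved to 6 °C for the last 3 days (3D), or held at 6 °C for 14 days (14D). Each age and temperature gave 1 library of live cells from which CD45+ immune cells had been sorted out, 6 in all, and the number of mice behind each of these libraries was not given in the sources used here. The study's methods treat pooling as the exception when stromal cells were isolated. With 1 library per age and temperature, p-values measured the spread between these libraries after the other factor was fitted, and the library and its group could not otherwise be told apart.

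Cytosolic citrate is split to acetyl-CoA by ATP citrate lyase (Acly), carboxylated to malonyl-CoA by acetyl-CoA carboxylase (Acaca) and built into palmitate by fatty acid synthase (Fasn), with NADPH from malic enzyme (Me1) and other sources. Palmitate is then elongated (Elovl6) and desaturated (Scd1, Scd2). Srebf1 and Mlxipl encode SREBP-1 and ChREBP, the insulin- and sugar-responsive transcription factors of the pathway, and Thrsp encodes Spot 14, a small protein that promotes fatty acid synthesis in lipogenic tissues. In adipose tissue the pathway is best known from mature adipocytes, which float away when tissue is digested and are therefore largely missing from stromal preparations.

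The genes lie on 6 chromosomes of the GRCm38 assembly: Acly, Acaca, Fasn and Srebf1 on chromosome 11, Scd1 and Scd2 on chromosome 19 (chr19:44394455-44407879, minus strand, and chr19:44293674-44306864, plus strand), and the others on chromosomes 3, 5, 7 and 9. Promoters, from 250 bases before to 50 bases after the RefSeq start (GRCm38.p6), were found for 8 of the 10 genes, 12 in all, and not for Scd1 and Scd2. A CCAAT box (CCAAT on either strand), the letters bound by NF-Y, was held by 37.4% of all 32851 promoters and by 7 of these 12. Those 7 belong to 6 of the 8 genes. The E-box CACGTG (7.15% of all promoters) was found only in Mlxipl, 98 bases before its start, and the sterol response element letters TCACNCCAC (1.24%) only in a second Mlxipl promoter. The letters CACCCCAC, another form of that element (2.87%), were in none of the 12, and the GC box GGGCGG (35.7%) was in 5 of the 12, from 4 genes. The promoters of Fasn and Thrsp are shown because the levels of both genes set cell classes apart below, with CCAAT boxes in capitals. Both are on the minus strand and read 5′ to 3′ toward the gene, Fasn at chr11:120824498-120824797 and Thrsp at chr7:97417501-97417800.
Fasn: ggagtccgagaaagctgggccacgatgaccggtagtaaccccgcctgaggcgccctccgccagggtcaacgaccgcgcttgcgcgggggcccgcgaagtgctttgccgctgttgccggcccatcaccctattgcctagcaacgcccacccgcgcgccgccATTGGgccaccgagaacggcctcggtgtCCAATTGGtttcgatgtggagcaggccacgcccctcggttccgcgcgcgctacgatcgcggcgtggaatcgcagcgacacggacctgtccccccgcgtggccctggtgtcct
Thrsp: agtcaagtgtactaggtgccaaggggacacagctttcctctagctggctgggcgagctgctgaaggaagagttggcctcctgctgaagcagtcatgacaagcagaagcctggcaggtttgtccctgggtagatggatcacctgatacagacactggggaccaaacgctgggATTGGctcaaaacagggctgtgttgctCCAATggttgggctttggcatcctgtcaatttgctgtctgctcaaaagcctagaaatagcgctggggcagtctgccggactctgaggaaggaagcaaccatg
Fasn held 3 matches, at 90, 62 and 59 bases before the start, the last 2 sharing letters, and Thrsp held 2, at 79 and 52 bases before it. A match is a description of letters and not evidence of binding.

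Of 68103 barcodes, 57326 were kept, and library totals ranged from 52068837 to 88508349 UMIs. Barcodes were placed by marker gates into 3 classes of adipose stem and progenitor cells (ASPCs), namely Dpp4+ fibroblasts (21237), Icam1+ preadipocytes (19827) and Cd142+ fibroblasts (2894), and into endothelial (4560), mural (1182), Schwann (148), immune (342) and adipocyte-like (286) barcodes. The aged 14D library stood apart, with a median of 2588 UMIs per barcode and 40.5% of kept barcodes in no class, against 4.26% to 6.97% in the others. Library pairs shared 30 to 44 barcode sequences, at most 0.379% of the smaller library. Levels are given as CPM, the UMIs of a gene per 1000000 UMIs of its class in its library, always in the order young TN, young 3D, young 14D, aged TN, aged 3D, aged 14D.

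The adipocyte-like label held for only some of the barcodes gated by at least 3 UMIs of Adipoq, Plin1 and Cidec. Of the 286 kept, 207 (72.4%) also passed the endothelial gate and 15 (5.24%) passed no other gate, and the filter on barcodes with deviating depth or mitochondrial RNA had removed most of those that passed the adipocyte gate alone. An adipocyte-only set was therefore added after the data were seen: 222 barcodes (22 to 78 per library) with more than 200 genes that passed this gate and no other. In it, 9 or 10 of 10 adipocyte genes not used by the gate (among them Retn, Cfd, Car3 and Lipe) were detected in each library, at 23621 to 64797 CPM in sum, against 4073 to 10166 CPM in the adipocyte-like barcodes and 11.2 to 23.7 CPM in Dpp4+ fibroblasts. Immune markers were at 0 in the adipocyte-only set and endothelial markers summed to 121 to 701 CPM. Pan-ASPC markers summed to 577 to 4151 CPM and Icam1+ markers to 414 to 1984 CPM. The set left out barcodes that passed any other gate, so low sums here were partly fixed by that choice and are no test of it. Its median depth was 797.5 to 1208 UMIs per barcode, by library. In each library 1 of 6 epithelial markers was detected (1369 to 4782 CPM). That list was detected in every other class too, at 361 to 424 CPM in Dpp4+ fibroblasts and 720 to 956 CPM in Icam1+ preadipocytes. Haemoglobin RNA reached 75474 CPM in the young TN library of the adipocyte-only set. The share of adipocyte-like barcodes was 0.391% ± 0.228 in young and 0.613% ± 0.244 in aged libraries (SD, n = 3 each, exact permutation test, two-sided, p = 0.4, where 0.1 was the smallest p possible).

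Most of the pathway was highest in the adipocyte-only barcodes. Fasn, the synthase, stood at 596, 809, 1776, 1271, 1450 and 1179 CPM there, against 23.9 to 50.1 CPM in the 3 ASPC classes. Acaca stood at 142, 172, 202, 169, 282 and 223 CPM against 12.6 to 21.4 CPM, and Acly at 85.2, 507, 464, 339, 591 and 223 CPM against 90.2 to 151 CPM, so that for Acly the young TN library alone fell below the ASPCs. The order was the same for the desaturase Scd1 (1230 to 4367 CPM, against 26.4 to 99.2), for Me1 (381 to 1493, against 11.7 to 32.4) and for Thrsp (1491 to 4439, against 0.239 to 3.14). In edgeR's quasi-likelihood test on class sums with library as a block, these 6 genes were higher in adipocyte-only barcodes than in each of the 7 other classes (Benjamini-Hochberg adjusted p under 0.05), while 9.45% to 13.3% of the 11748 genes tested were higher there, depending on the class compared. The log2 difference over the other classes was 4.27 to 5.85 for Fasn, 3.09 to 4.64 for Acaca, 1.23 to 2.73 for Acly, 4.25 to 5.66 for Scd1 and 4.58 to 7.04 for Me1.

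The elongase Elovl6 and the transcription factors were less adipocyte-bound. Elovl6 was higher in adipocyte-only barcodes than in 6 other classes (log2 difference 1.92 to 4.63) but not than in Schwann cells (0.55 ± 0.58 SE, edgeR adjusted p = 0.52). In aged 3D, 1 adipocyte-only barcode held 28 Elovl6 UMIs and all the others 3, and the test between classes was not repeated without it. Srebf1 rested there on 0 to 13 UMIs per library and was higher than in endothelial, mural and immune barcodes alone. Mlxipl held at most 5 UMIs per library in that set, was at 0 in every Schwann and immune library, and was too low for the test between classes. Scd2, the second desaturase, went the other way: adipocyte-only levels of 99.4, 64.7, 262, 42.4, 27.5 and 0 CPM were not above those of Dpp4+ fibroblasts (log2 difference -0.94 ± 0.40, edgeR adjusted p = 0.052). The place of highest Scd2 was the Schwann cell class, the glia of peripheral nerves, at 1058, 474, 459, 1477, 410 and 675 CPM from 27 to 203 UMIs.

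**Figure D1:**
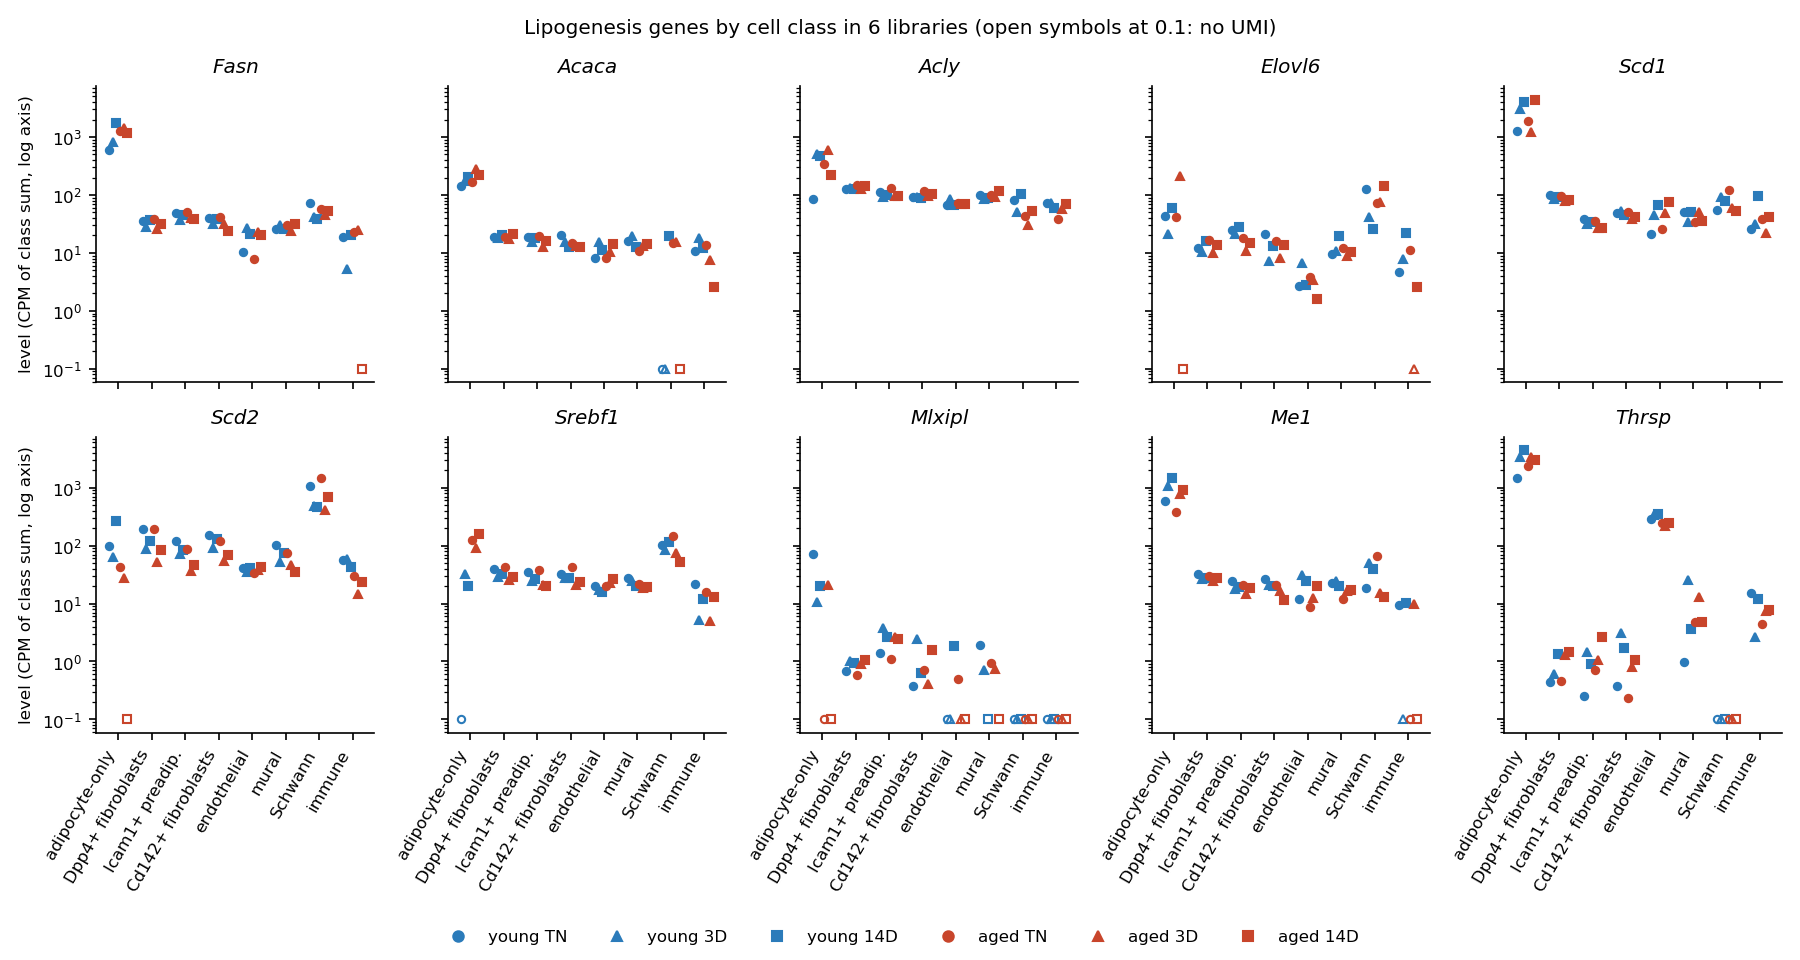
Level of each of the 10 genes (CPM of the class, log axis) in 8 cell classes, 1 point per library, with open symbols at 0.1 where a library held no UMI. Endothelial here means endothelial barcodes with no adipocyte-gate UMI. Fasn, Acaca, Scd1, Me1 and Thrsp were highest in adipocyte-only barcodes, Scd2 in Schwann cells, and Thrsp also stood at 218 to 353 CPM in endothelial barcodes.

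Schwann cells held more Scd2 than each of the other 7 classes, by 2.20 ± 0.19 on the log2 scale over Dpp4+ fibroblasts (edgeR adjusted p = 2.4e-13), where 12.6% of genes were higher in Schwann cells. All 6 Schwann libraries lay above every library of the other classes, and within each age the TN library was the highest, which rests on 17 to 38 barcodes per library and was not tested. Srebf1 (1.13 ± 0.25, adjusted p = 0.00025) and Elovl6 (2.00 ± 0.47, adjusted p = 0.00063) were also higher in Schwann cells than in Dpp4+ fibroblasts, whereas Thrsp was at 0 in all 6 Schwann libraries.

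Within the ASPCs, the genes divided between the Dpp4+ fibroblasts, which include early progenitors, and the Icam1+ preadipocytes, which are nearer to the adipocyte lineage. Dpp4+ fibroblasts held more Scd1 (1.43 ± 0.19 on the log2 scale, edgeR adjusted p = 3.2e-08), with 80.0 to 99.2 CPM against 26.4 to 38.9 CPM and no overlap. Scd2 (0.67 ± 0.10), Me1 (0.51), Acly (0.33) and Srebf1 (0.25) were higher in Dpp4+ fibroblasts as well, whereas Elovl6 (0.60 ± 0.12, adjusted p = 5.6e-05) and Fasn (0.44 ± 0.15, adjusted p = 0.0092) were higher in Icam1+ preadipocytes. That is 5 genes against 2, read beside 35.8% of the 12072 genes tested that were higher in Dpp4+ fibroblasts and 30.5% that were higher in Icam1+ preadipocytes. Acaca and Thrsp did not differ past the threshold.

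The adipocyte-only levels did not differ past the threshold with age or temperature, and the data behind them were thin. Thrsp stood at 1491, 3310 and 4439 CPM in young TN, 3D and 14D and at 2372, 3361 and 2964 CPM in aged libraries. Scd1 stood at 1249, 3073 and 3975 CPM in young and at 1864, 1230 and 4367 CPM in aged libraries, so that the 3D value of the aged library was below its TN value. Me1 stood at 596, 1078 and 1493 CPM in young and at 381, 777 and 924 CPM in aged libraries. For Me1 and Thrsp both cold libraries lay above TN at each age. The scale mattered for Scd1. Per 100 UMIs of the 10 adipocyte genes not used by the gate, it stood at 1.93, 13.0 and 10.4 in young and 2.97, 3.46 and 8.39 in aged libraries. On this scale Fasn, Acaca, Scd1, Me1 and Thrsp were higher in both cold libraries than at TN at each age. Acly was lower in aged 14D (0.429) than in aged TN (0.539). These ratios were not tested. edgeR called none of the 6 genes that passed its filter, for age (0.343% of genes called, 0 of the 6 at unadjusted p under 0.05), for temperature (0.114%, 2 unadjusted), at 3D (0.458%, 1 unadjusted) or at 14D (0.114%, 2 unadjusted), and DESeq2 called 0 in each. The largest of these estimates was Acly at 3D, 1.59 ± 0.58 on the log2 scale (edgeR adjusted p = 0.295).

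**Figure D2:**
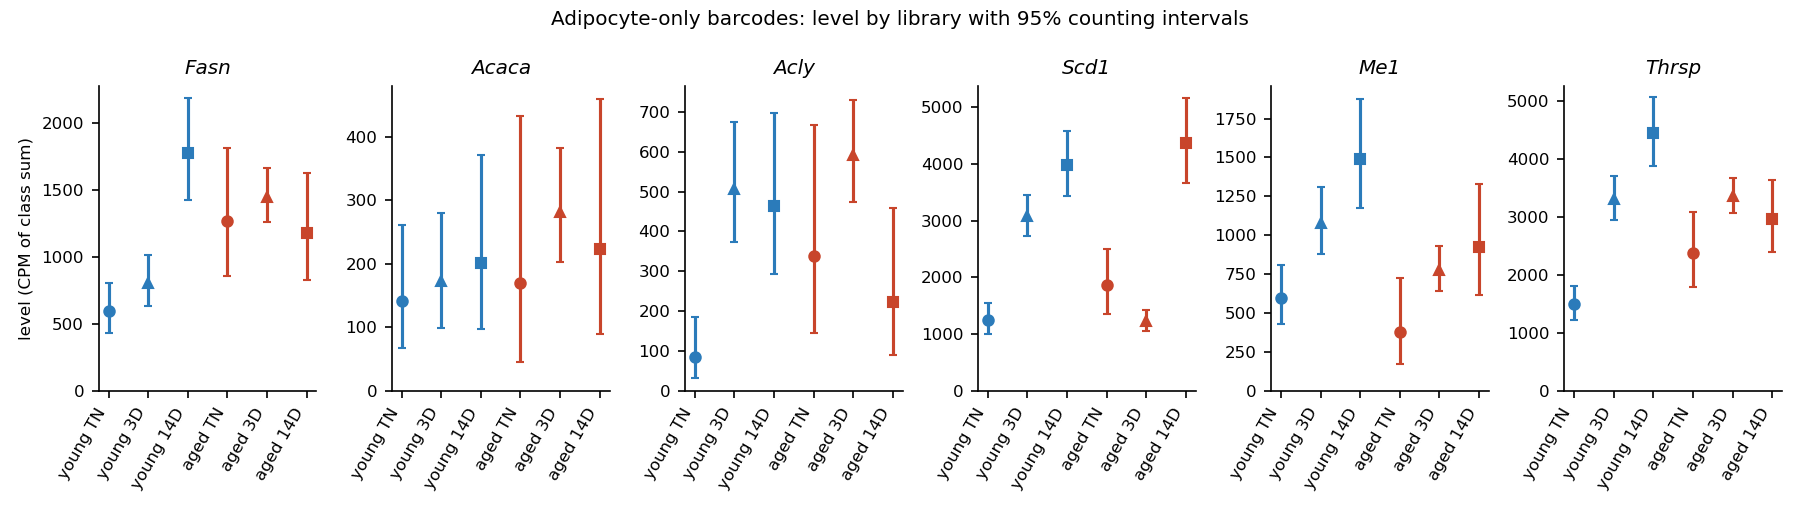
Levels of 6 genes (CPM) in the adipocyte-only barcodes of each library, with 95% exact Poisson intervals that cover counting error only. For Me1 both cold libraries lie above TN at each age, at 1078 and 1493 CPM over 596 in young and 777 and 924 over 381 in aged, while aged Scd1 falls to 1230 CPM at 3D. Per 100 UMIs of the 10 adipocyte genes not used by the gate, aged Scd1 is 2.97 at TN and 3.46 at 3D.

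A single barcode weighed on the aged 3D library. It held 343 of the 344 Ucp1 UMIs of that library's adipocyte-only barcodes, Ucp1 being the uncoupling protein of thermogenic adipocytes, and 23.5% of all their UMIs. It also held 28 of the 31 Elovl6 UMIs, 94 of Fasn, 40 of Acly and 21 of Acaca. Without it, the aged 3D level of Elovl6 dropped from 213 to 27.0 CPM, Fasn from 1450 to 1052 CPM, Acly from 591 to 414 CPM and Acaca from 282 to 180 CPM, while Scd1 went from 1230 to 1519 CPM and Thrsp from 3361 to 3955 CPM. The young cold libraries also leaned on 1 barcode each. It held 23066 of the 92755 adipocyte-only UMIs in young 3D and 21125 of 49558 in young 14D. The levels of these libraries without that barcode were not taken.

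In the adipocyte-like barcodes as gated, most of which were also endothelial, 6 of the 7 genes tested had a positive estimate at 3D, Scd2 being the exception (-0.75 ± 0.38), but none passed. Thrsp stood at 183, 827 and 185 CPM in young TN, 3D and 14D and at 238, 769 and 677 CPM in aged libraries. Fasn stood at 119, 353 and 165 CPM in young and at 115, 312 and 317 CPM in aged libraries. Both TN libraries lay below every cold library for Fasn, and the median log2 change of the 7 genes tested at 3D was 1.23, against -0.01 over all genes. Thrsp had 1.99 ± 0.38 (edgeR adjusted p = 0.139), Me1 1.69 ± 0.32 (adjusted p = 0.139) and Fasn 1.52 ± 0.30 (adjusted p = 0.157). edgeR called 0 of the 7 at 3D (0.0508% of all genes called), with 5 at unadjusted p under 0.05 and 1 called by DESeq2. It called 0 of 7 at 14D (0.0254%, 4 unadjusted, 0 by DESeq2), 0 of 7 for temperature as a whole (0.0254%, 5 unadjusted, 0 by DESeq2) and 0 of 7 for age (0.102%, 1 unadjusted, 0 by DESeq2). Without the filter on deviating barcodes the temperature test called 5, and without either 14D library it called 4.

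Scd2 was called in more progenitor comparisons than any other member. It fell at 3D in all 3 ASPC classes and was lower with age in all 3. In Dpp4+ fibroblasts it stood at 193, 88.1 and 122 CPM in young TN, 3D and 14D and at 191, 51.5 and 84.3 CPM in aged libraries. In Icam1+ preadipocytes it stood at 118, 70.7 and 83.6 CPM in young and at 86.4, 35.8 and 46.9 CPM in aged libraries, and in Cd142+ fibroblasts at 155, 90.5 and 130 CPM and at 119, 55.1 and 69.6 CPM. Within each age and class the order was TN, then 14D, then 3D, and at each temperature the aged library was the lower one, by little for Dpp4+ fibroblasts at TN.

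The fall of Scd2 at 3D against TN was 1.53 ± 0.14 on the log2 scale in Dpp4+ fibroblasts (edgeR adjusted p = 0.000283), 0.98 ± 0.11 in Icam1+ preadipocytes (adjusted p = 0.0015) and 0.92 ± 0.12 in Cd142+ fibroblasts (adjusted p = 0.000774). These calls were kept when each library was left out in turn, with log2 changes of -1.86 to -1.21 in Dpp4+ fibroblasts, -1.18 to -0.77 in Icam1+ preadipocytes and -1.13 to -0.76 in Cd142+ fibroblasts. At 14D it had fallen by 0.91 ± 0.14 in Dpp4+ fibroblasts (edgeR adjusted p = 0.00696; -0.59 without the aged TN library, adjusted p = 0.0061) and by 0.68 ± 0.11 in Icam1+ preadipocytes (adjusted p = 0.0153), a call lost without the aged TN library (-0.48, adjusted p = 0.0668). With age, Scd2 fell by 0.74 ± 0.09 in Icam1+ preadipocytes (edgeR adjusted p = 0.00082) and by 0.62 ± 0.10 in Cd142+ fibroblasts (adjusted p = 0.000873), both kept without any 1 library. In Dpp4+ fibroblasts it fell by 0.46 ± 0.11 (edgeR adjusted p = 0.0186), which was lost by DESeq2 (adjusted p = 0.199) and without the young 3D or aged 3D library (-0.32 each, adjusted p = 0.0708 and 0.0656), and was -0.69 without the young TN or aged TN library. In endothelial and mural cells its age estimates were -0.44 ± 0.10 (edgeR adjusted p = 0.0706) and -0.53 ± 0.17 (adjusted p = 0.374).

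**Figure D3:**
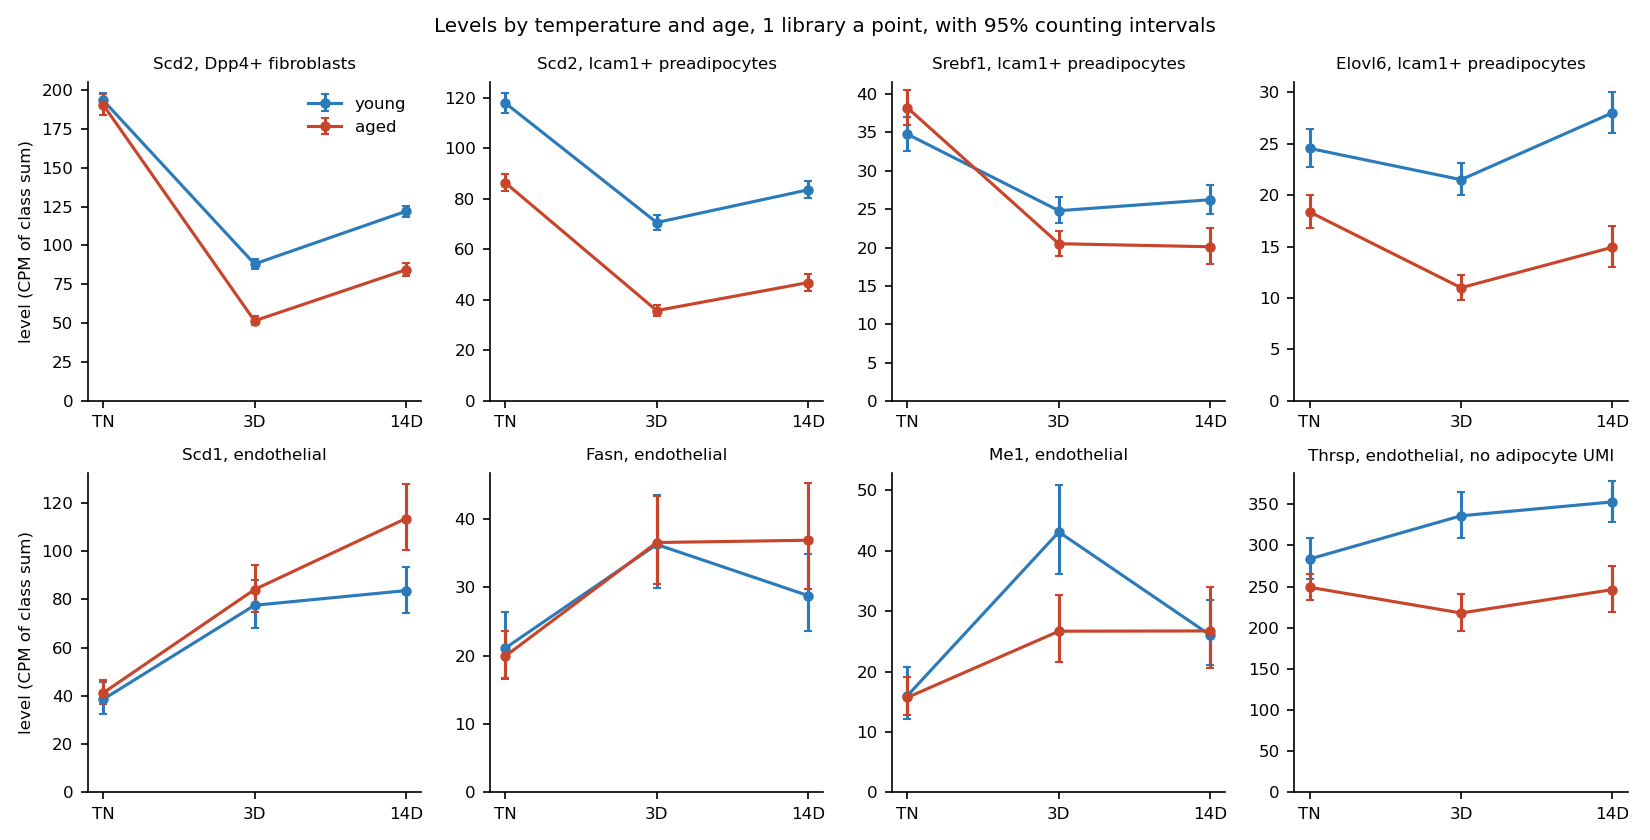
Levels (CPM) at TN, 3D and 14D in young and aged libraries, 1 point per library, for 8 pairs of gene and class. Scd2 is lowest at 3D at both ages (88.1 and 51.5 CPM in Dpp4+ fibroblasts), and endothelial Scd1 is higher in the cold than at TN at both ages (77.5 to 113 CPM over 38.5 and 41.2).

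Scd2 was the single member called with age in Dpp4+ and Cd142+ cells, and 1 of 2 in Icam1+ preadipocytes. All 10 members were tested in Dpp4+ fibroblasts, where 17.7% of genes were called with age (8.81% higher, 8.92% lower), all 10 in Icam1+ preadipocytes (14.6%, with 8.02% higher and 6.56% lower) and 8 in Cd142+ fibroblasts (9.39%, with 5.29% higher and 4.1% lower). The second gene was Elovl6 in Icam1+ preadipocytes, at 24.6, 21.5 and 28.0 CPM in young and 18.4, 11.0 and 14.9 CPM in aged libraries, with no overlap between the ages. It fell by 0.74 ± 0.10 with age (edgeR adjusted p = 0.00186), in every fit without 1 library, whereas in Dpp4+ fibroblasts, at 12.0, 10.6, 16.0, 16.8, 9.81 and 13.9 CPM, the estimate was 0.02 ± 0.13. The difference of these age effects, Icam1+ less Dpp4+, was -0.76 ± 0.18 (edgeR adjusted p = 0.0211, 2.95% of 12495 genes called), and it was lost without the aged TN, aged 3D or aged 14D library (adjusted p = 0.0916, 0.0691 and 0.0821). In Cd142+ fibroblasts Elovl6 stood at 21.4, 7.17 and 13.2 CPM in young and 15.7, 8.17 and 13.8 CPM in aged libraries, lowest at 3D at both ages. It fell by 1.32 ± 0.23 at 3D (edgeR adjusted p = 0.00536), which was lost without the young TN or young 3D library (-0.96 and -1.02, adjusted p = 0.0982 and 0.11) and with a stricter gate (adjusted p = 0.209).

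No other member was called with age in the progenitors. Scd1 in Icam1+ preadipocytes had -0.22 ± 0.06 (edgeR adjusted p = 0.0532) and Me1 in Cd142+ fibroblasts -0.45 ± 0.15 (adjusted p = 0.0774), at 26.8, 20.6 and 20.4 CPM in young and 20.8, 16.3 and 11.7 CPM in aged libraries. Acly stood at 91.5, 91.4 and 90.2 CPM in young and at 118, 96.4 and 105 CPM in aged Cd142+ fibroblasts. Its estimate of 0.23 ± 0.09 was not past the threshold (edgeR adjusted p = 0.117). Fasn and Acaca had estimates of -0.13 and -0.02 in Dpp4+ fibroblasts and -0.01 and -0.11 in Icam1+ preadipocytes. The low transcripts had wide errors in the same classes, with 0.41 ± 0.30 and 0.69 ± 0.41 for Thrsp and -0.08 ± 0.26 and -0.32 ± 0.19 for Mlxipl.

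At 3D, 7 of the 10 genes passed the test in Icam1+ preadipocytes, 6 lower and Mlxipl higher, where 3.75% of genes were called lower and 3.75% higher. In Dpp4+ fibroblasts 4 of 10 passed, all lower (3.76% of genes called lower and 3.3% higher), and in Cd142+ fibroblasts 2 of 8, both lower (1.22%). The median log2 change of the members at 3D was -0.40 in Icam1+, -0.30 in Dpp4+ and -0.37 in Cd142+ cells, against -0.01, -0.01 and 0.00 over all genes tested. With age left out of the fit, every ASPC call at 3D and 14D was lost, and with temperature left out so was every ASPC call with age.

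Srebf1, the transcription factor gene, fell in both large ASPC classes. It stood at 39.2, 28.9 and 32.6 CPM in young and at 42.0, 25.8 and 29.1 CPM in aged Dpp4+ fibroblasts, and at 34.8, 24.8, 26.2, 38.2, 20.5 and 20.1 CPM in Icam1+ preadipocytes. Both TN libraries lay above all 4 cold libraries in each class. At 3D it fell by 0.59 ± 0.09 in Dpp4+ fibroblasts (edgeR adjusted p = 0.00464), kept without any 1 library, and by 0.67 ± 0.11 in Icam1+ preadipocytes (adjusted p = 0.0092), lost without the young 3D, aged TN or aged 3D library (adjusted p = 0.0802, 0.0792 and 0.0988). At 14D it fell by 0.37 ± 0.09 in Dpp4+ fibroblasts (edgeR adjusted p = 0.0466), lost without the aged TN or aged 14D library (-0.24 and -0.27, adjusted p = 0.227 and 0.139) by DESeq2 (0.108), with RLE size factors (0.0511), with a stricter gate (0.0514) and with no deviation filter (0.0516). In Icam1+ preadipocytes it fell by 0.65 ± 0.12 at 14D (edgeR adjusted p = 0.0251), lost without the aged TN or aged 14D library (adjusted p = 0.166 and 0.0566). Cd142+ fibroblasts, at 32.8, 27.6, 28.1, 42.7, 20.8 and 23.4 CPM, had an estimate of -0.58 ± 0.17 at 3D (adjusted p = 0.099).

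Mlxipl, the ChREBP gene, moved opposite to Srebf1 in Icam1+ preadipocytes. It was a low transcript there, at 1.40, 3.84 and 2.64 CPM in young and 1.12, 2.67 and 2.45 CPM in aged libraries, from 33 to 132 UMIs, with both TN libraries below all cold ones. At 3D it was higher by 1.38 ± 0.23 (edgeR adjusted p = 0.0085), lost without the young 3D, aged TN or aged 3D library (adjusted p = 0.179, 0.0518 and 0.0531), while DESeq2 gave it no adjusted p. In Dpp4+ fibroblasts, at 0.591 to 1.08 CPM, the estimate was 0.53 ± 0.33 (edgeR adjusted p = 0.365).

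The enzymes of fatty acid synthesis fell by less than Scd2 did at 3D, and their calls were easily lost. Fasn in Dpp4+ fibroblasts stood at 35.3, 28.3 and 37.1 CPM in young and 37.8, 25.6 and 31.1 CPM in aged libraries, lowest at 3D in both. It fell by 0.46 ± 0.10 (edgeR adjusted p = 0.0225), lost without the young 3D, aged TN or aged 3D library (adjusted p = 0.0903, 0.122 and 0.0733; -0.31 without aged TN). Acly in Icam1+ preadipocytes, at 113, 92.1, 97.9, 134, 95.1 and 96.2 CPM, fell by 0.37 ± 0.08 (adjusted p = 0.0272), lost without the same libraries (adjusted p = 0.308, 0.188 and 0.278). Acaca there, at 18.7, 15.3, 18.1, 19.7, 12.7 and 16.3 CPM, fell by 0.43 ± 0.10 (edgeR adjusted p = 0.0371), again lost without them (adjusted p = 0.193, 0.258 and 0.382) and by DESeq2 (0.16). Scd1 in Icam1+ preadipocytes, at 38.9, 31.7, 33.5, 35.3, 26.4 and 27.4 CPM, fell by 0.33 ± 0.08 (edgeR adjusted p = 0.0363), lost by DESeq2 (0.193) and without any TN or 3D library (0.0729 to 0.359).

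Me1, the NADPH-making malic enzyme, was lower at 3D in both classes, at 32.4, 26.1, 27.4, 29.4, 24.1 and 27.9 CPM in Dpp4+ fibroblasts and 24.6, 17.8, 19.4, 20.9, 14.7 and 18.2 CPM in Icam1+ preadipocytes. It fell by 0.33 ± 0.08 (edgeR adjusted p = 0.0291) and 0.46 ± 0.10 (adjusted p = 0.0233), lost by DESeq2 (0.177 and 0.0922) and without the young TN, young 3D, aged TN or aged 3D library (0.0606 to 0.193 in Dpp4+ and 0.0714 to 0.221 in Icam1+).

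By 14D fewer members differed from TN. In Dpp4+ fibroblasts 2 were called lower, Scd2 and Srebf1 (4.2% of genes called, 2.09% lower), and Thrsp higher (2.11%). In Icam1+ preadipocytes 2 of 10 were called, both lower (2.17% of genes called, 1.26% lower), and in Cd142+ fibroblasts edgeR called 0 of 8 (0.326% of genes called, 0.223% higher, 5 at unadjusted p under 0.05, 0 by DESeq2). Thrsp in Dpp4+ fibroblasts was at 0.438, 0.605, 1.34, 0.460, 1.27 and 1.43 CPM, from 7 to 51 UMIs. It was higher by 1.61 ± 0.38 at 14D (edgeR adjusted p = 0.0443), lost without the young TN, young 14D or aged TN library (adjusted p = 0.165, 0.261 and 0.145) and with a stricter gate (0.0521) or no deviation filter (0.0523). The 10 adipocyte check genes summed to 13.7 and 12.0 CPM in young TN and young 14D Dpp4+ fibroblasts and to 12.0 and 23.7 CPM in aged TN and aged 14D, and their part in the Thrsp value was not tested. Over both cold times together, the temperature test called Fasn, Scd2 and Srebf1 in Dpp4+ fibroblasts (7.16% of genes called), Acly, Scd2, Srebf1, Mlxipl and Me1 in Icam1+ preadipocytes (6.05%), and Elovl6 and Scd2 in Cd142+ fibroblasts (2.3%).

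**Figure D4:**
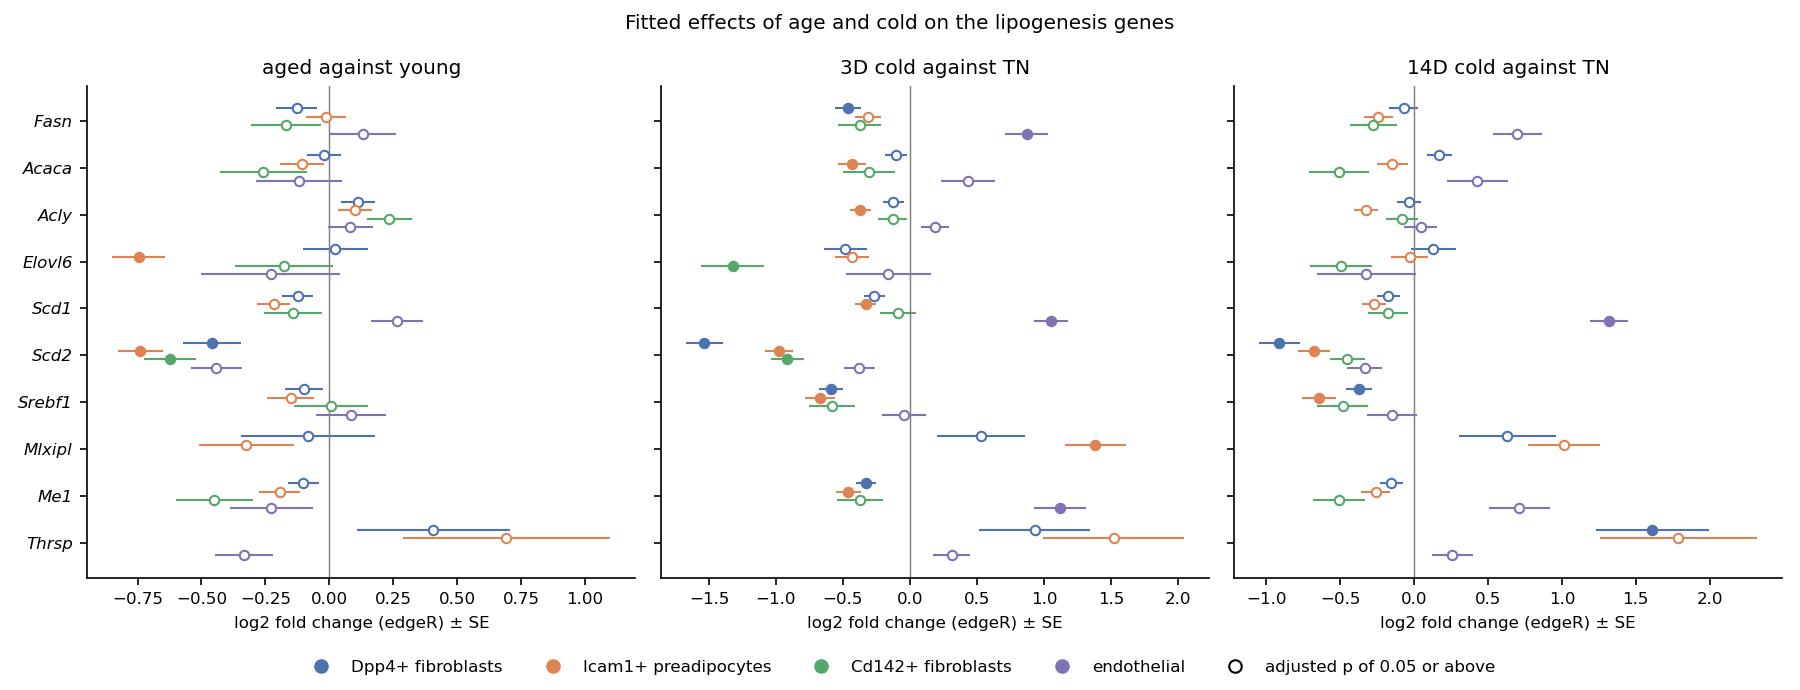
Log2 fold change ± SE of each gene with age, at 3D and at 14D in Dpp4+ fibroblasts, Icam1+ preadipocytes, Cd142+ fibroblasts and endothelial cells, with filled symbols for an edgeR adjusted p under 0.05. Scd2 is below 0 in all 3 ASPC classes with age (-0.46, -0.74 and -0.62) and at 3D (-1.53, -0.98 and -0.92), while endothelial Scd1, Fasn and Me1 are above 0 in the cold.

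In endothelial cells, the lining of blood vessels, the cold went with more Scd1, Fasn and Me1. Scd1 stood at 38.5, 77.5 and 83.6 CPM in young TN, 3D and 14D and at 41.2, 84.0 and 113 CPM in aged libraries, with both TN libraries below all cold ones. It rose by 1.05 ± 0.13 on the log2 scale at 3D (edgeR adjusted p = 0.00875) and by 1.32 ± 0.13 at 14D (adjusted p = 0.00482), both lost without the aged TN library (0.93 and 1.20, adjusted p = 0.089 and 0.0922). Fasn, at 21.1, 36.3, 28.8, 19.9, 36.5 and 36.9 CPM, rose by 0.87 ± 0.16 at 3D (edgeR adjusted p = 0.048), lost without the young TN, young 3D, aged TN or aged 3D library (0.0769 to 0.38), by DESeq2 (0.575) and with RLE size factors (0.0548). Me1, at 16.0, 43.1, 26.0, 15.7, 26.7 and 26.7 CPM, rose by 1.12 ± 0.19 at 3D (edgeR adjusted p = 0.0434), lost without the young TN, young 3D or aged TN library (0.176, 0.304 and 0.127) and by DESeq2 (0.177). These were 3 of 9 genes tested at 3D (0.367% of genes called higher) and 1 of 9 at 14D (0.152%), and Scd1 was the 1 gene of the 9 called in the test of both cold times together (0.493%). With age left out of the fit, each of these calls was lost. With age edgeR called 0 of 9 (0.941% of genes called, 3 at unadjusted p under 0.05, 0 by DESeq2).

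Adipocyte RNA was present among these endothelial barcodes, so the values were taken again without those that held adipocyte-gate UMIs. The 10 adipocyte check genes summed to 534, 594 and 364 CPM in young and 594, 929 and 650 CPM in aged endothelial barcodes. In the 3203 endothelial barcodes that passed no other gate and held no Adipoq, Plin1 or Cidec UMI, a set chosen after the data were seen, they still summed to 291 to 542 CPM. Of the check genes, Lipe stood at 69.4 to 99.0 CPM in this set and 54.7 to 86.6 CPM over all endothelial barcodes. Car3 stood at 102 to 253 and 151 to 473 CPM. Whether the sum is adipocyte RNA alone was not tested. Ucp1, which marks thermogenic adipocytes, was also higher in every cold library than at TN, at 0.281, 21.9 and 10.1 CPM in young and 0.150, 3.93 and 1.62 CPM in aged endothelial barcodes. In the set with no adipocyte-gate UMI it stood at 0.538, 30.8, 13.5, 0.252, 3.41 and 3.23 CPM. Its part in the changes was not tested. Scd1 there stood at 21.5, 44.6 and 65.9 CPM in young and 26.3, 49.5 and 74.3 CPM in aged libraries, and rose by 1.01 ± 0.16 at 3D (edgeR adjusted p = 0.0322) and 1.57 ± 0.15 at 14D (adjusted p = 0.00178), the latter kept without any 1 library. Fasn stood at 10.2, 27.1, 20.9, 7.83, 22.8 and 20.2 CPM, from 19 to 45 UMIs, and rose by 1.53 ± 0.26 at 3D (adjusted p = 0.037). Both 3D calls were lost without the young 3D, aged TN or aged 3D library (edgeR adjusted p of 0.0956 to 0.248 for Scd1 and 0.162 to 0.257 for Fasn), and Me1 had 1.04 ± 0.30 (adjusted p = 0.276). In this set 2 of 8 genes were called at 3D (0.292% of genes called higher, 0 by DESeq2, which gave neither of the 2 an adjusted p). At 14D 1 of 8 was called (0.25%), for both cold times together 1 of 8 (0.417%, 0 by DESeq2) and with age 0 of 8 (0.897%, 2 at unadjusted p under 0.05, 0 by DESeq2).

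The cold effect on Scd1 differed between endothelial cells and progenitors when tested directly. With 3D and 14D pooled as cold and library as a block, in a test added after the data were seen, the endothelial effect exceeded that in Dpp4+ fibroblasts by 1.41 ± 0.18 on the log2 scale (edgeR adjusted p = 0.00432, 0.0154% of genes called), in Icam1+ preadipocytes by 1.49 ± 0.18 (adjusted p = 0.00161, 0.0386%) and in Cd142+ fibroblasts by 1.31 ± 0.21 (adjusted p = 0.0318, 0.0154%). Me1 differed from Icam1+ preadipocytes by 1.32 ± 0.21 (edgeR adjusted p = 0.0162). All 4 differences were lost without the young TN library (adjusted p of 0.0953 to 0.35) or the aged TN library (0.154 to 0.527), and those of Scd1 from Cd142+ fibroblasts and of Me1 also without the aged 3D library (0.34 and 0.146). The former was lost too without the young 14D library (0.0663) and the latter without the young 3D library (0.0601). With the endothelial barcodes that held no adipocyte-gate UMI, Scd1, Fasn and Me1 differed from all 3 ASPC classes (0.108%, 0.124% and 0.093% of genes called), Fasn by 1.69 to 1.74 (edgeR adjusted p of 0.00372 to 0.0112). Between the ASPC classes themselves edgeR called 0 of the 10 members for the cold effect (0% of genes called), with 1 to 3 at unadjusted p under 0.05 in each pair, and DESeq2 was not run for these differences.

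Thrsp was held by endothelial cells at levels far above those of the progenitors. In the endothelial barcodes with no adipocyte-gate UMI it stood at 284, 336 and 353 CPM in young and at 249, 218 and 246 CPM in aged libraries, against 0.438 to 1.43 CPM in Dpp4+ fibroblasts and 0.251 to 2.64 CPM in Icam1+ preadipocytes. The difference was 8.15 ± 0.29 on the log2 scale over Dpp4+ fibroblasts (edgeR adjusted p = 2.5e-27), 7.87 ± 0.28 over Icam1+ preadipocytes and 5.21 ± 0.30 over mural cells (adjusted p = 4.2e-19), where 38.9% of genes were higher in endothelial than in Dpp4+ barcodes. Adipocyte-only barcodes held more still, by 3.00 ± 0.23 (adjusted p = 1.4e-14).

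A Thrsp UMI was found in many endothelial barcodes rather than in a few. After thinning each barcode to 2000 UMIs, which left out 181 aged TN and 73 aged 14D endothelial barcodes and 19 and 292 Dpp4+ fibroblasts of the same libraries, 38.1%, 46.1%, 48.0%, 34.9%, 31.4% and 34.1% of endothelial barcodes without adipocyte-gate UMIs held at least 1, and 0% to 0.522% of Dpp4+ fibroblasts, 0.0388% to 0.813% of Icam1+ preadipocytes and 0.546% to 5.36% of mural barcodes. Unthinned, the endothelial shares were 43.6% to 63.6% at median depths of 2837 to 4135.5 UMIs, and those of Dpp4+ fibroblasts 0.142% to 0.773% at 6870 to 9705 UMIs. Per 100 UMIs of the 10 adipocyte check genes, Thrsp stood at 40.2 to 121 UMIs in these endothelial barcodes and at 2.3 to 14.0 in adipocyte-only barcodes, with no overlap. The ranges did not overlap for Acly (12.9 to 23.3 against 0.131 to 2.15) and Acaca (1.82 to 3.83 against 0.219 to 0.793) either, whereas those of Fasn (1.71 to 7.18 against 0.92 to 4.64), Scd1 (4.94 to 22.6 against 1.93 to 13.0) and Me1 (1.93 to 8.29 against 0.607 to 4.56) did.

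**Figure D5:**
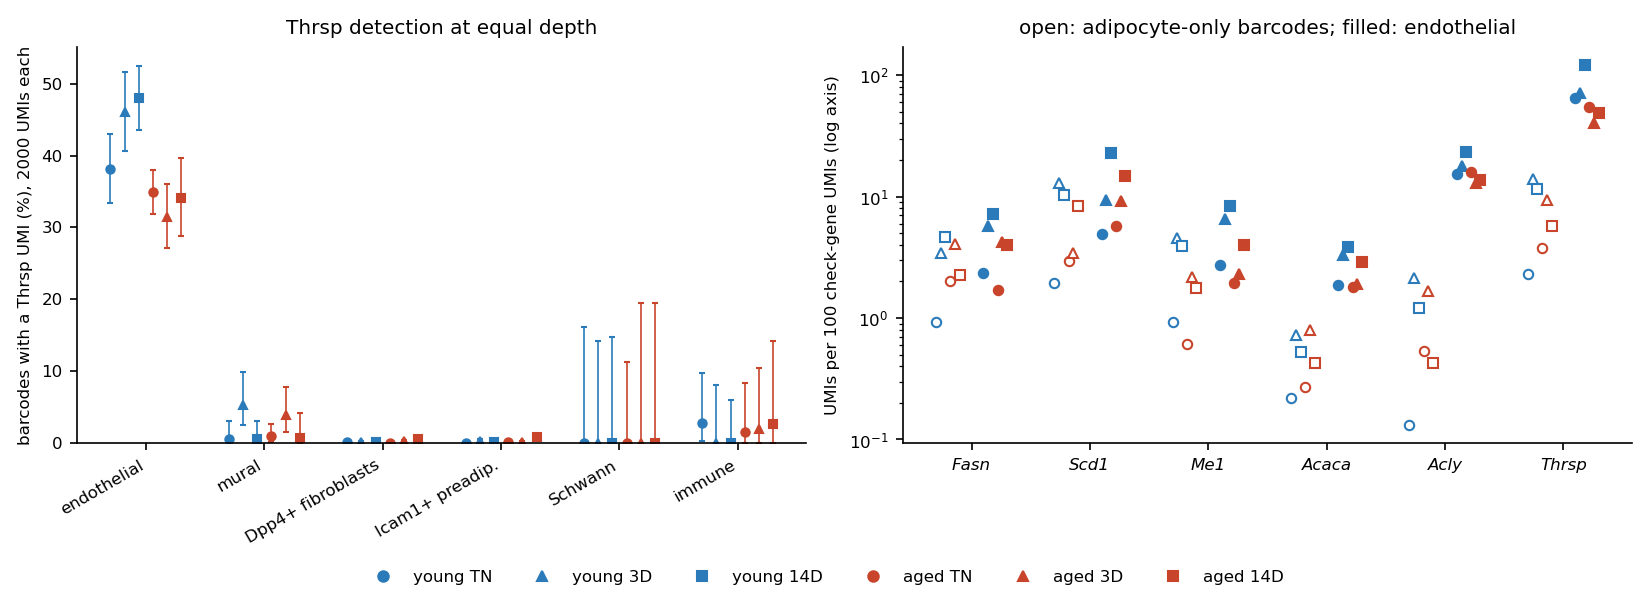
Left, share of barcodes with a Thrsp UMI after thinning to 2000 UMIs, by class and library, with exact 95% binomial intervals that cover counting error only; endothelial barcodes lie at 31.4% to 48.0%. Right, UMIs of each gene per 100 UMIs of 10 adipocyte genes in adipocyte-only (open) and endothelial (filled) barcodes, where Thrsp, Acly and Acaca do not overlap.

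In the endothelial barcodes with no adipocyte-gate UMI, Thrsp was lower in every aged library than in every young one, at 238 ± 17.3 against 324 ± 36.2 CPM (SD, n = 3 each), but the age estimate of -0.40 ± 0.10 was not past the threshold (edgeR adjusted p = 0.113), nor was the one over all endothelial barcodes, -0.33 ± 0.11 (adjusted p = 0.212), at 195, 289, 287, 197, 201 and 187 CPM, where the ages overlapped. Its changes at 3D were 0.06 ± 0.12 and 0.31 ± 0.14 in the same sets (adjusted p = 0.927 and 0.527).

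No gene of the pathway had a cold response that differed with age past the threshold. In the test of age by cold, edgeR called 0 members in each of the adipocyte-like, Dpp4+, Icam1+, Cd142+, endothelial and mural classes, with 0, 0, 1, 1, 1 and 0 at unadjusted p under 0.05 and 0 by DESeq2. The shares of all genes called were 0.0762%, 0%, 0%, 0.0186%, 0% and 0.545%. The same test called 0 of 6 members in the adipocyte-only set and 0 of 8 in endothelial barcodes with no adipocyte-gate UMI, with 0 unadjusted and 0 by DESeq2. The members' median estimate was -0.69 in the adipocyte-only set (0.14 over all genes) and -0.15 in those endothelial barcodes (-0.01). In the adipocyte-like barcodes it was 0.25 (0.01). In mural cells, the pericytes and smooth muscle of vessels, edgeR called 0 of 8 members for age (0.342% of genes called, 2 unadjusted), 0 at 3D (0.032%, 1 unadjusted) and 0 at 14D (0%, 1 unadjusted), and DESeq2 called 0 in each. The mural sums were not free of fibroblast RNA: pan-ASPC markers summed to 11533 to 18748 CPM, against 19452 to 29961 CPM in Dpp4+ fibroblasts. Of the 1182 mural barcodes, 660 passed no other gate. Before the filter on deviating barcodes there were 3942, and those left out had a median mitochondrial share of 9.03% to 10.7% by library. Scd2 in mural cells, at 104, 51.5, 73.0, 74.1, 45.9 and 35.1 CPM, had -0.90 ± 0.21 at 3D (adjusted p = 0.107).

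Genes around the 10 were read from 5 lists: supply of acetyl-CoA and malonyl-CoA, NADPH supply, elongation and desaturation, control by SREBP, ChREBP and LXR, and, beside them, the sterol targets of SREBP-2. At 3D in Dpp4+ fibroblasts, 2 of 11 tested elongation and desaturation genes fell, the desaturases Fads1 (by 0.96 on the log2 scale) and Fads3 (by 0.46), and 1 of 8 supply genes, the citrate carrier Slc25a1 (by 0.41). Of the 8 sterol genes, 6 fell, among them Fdft1 (by 1.05), Idi1 (by 0.95) and Cyp51 (by 0.63), and so did their regulators Srebf2 (by 0.37) and Insig1 (by 0.33). In Cd142+ fibroblasts 4 of 8 sterol genes fell, Fdft1 the furthest (by 1.13), and Srebf2 fell by 0.61. Icam1+ preadipocytes differed in their sterol list, where Fdft1 and Lss were lower (-0.74 and -0.86), while Acacb, the mitochondrial acetyl-CoA carboxylase, was higher there by 1.49. Of all genes tested at 3D, 7.06% were called in Dpp4+, 7.49% in Icam1+ and 2.62% in Cd142+ cells.

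With age the members called in the progenitors were all lower, whereas the lists held calls in both directions. Of all genes tested with age, 17.7% were called in Dpp4+, 14.6% in Icam1+ and 9.39% in Cd142+ cells. In Dpp4+ fibroblasts 6 of 11 elongation and desaturation genes were called, 4 lower and 2 higher, with a list median of -0.25 against 0.01 over all genes. Among them were the elongase Elovl7 (-1.61), the desaturase Fads1 (-0.35) and the dehydratase Hacd2 (0.34). In Icam1+ preadipocytes 6 of 8 sterol genes were higher, among them Hmgcs1 (0.49) and Idi1 (0.48), with a list median of 0.37 against 0.00 over all genes, and 4 of 7 NADPH genes were lower, Pgd by the most (-0.37). In Cd142+ fibroblasts 5 of 8 sterol genes were higher, Idi1 by 0.62 and Hmgcs1 by 0.55. In Dpp4+ fibroblasts 2 of 8 were called, Sqle and Fdft1, both lower (-0.26 and -0.37). Elovl5, an elongase of polyunsaturated fatty acids, was lower in all 3 classes (-0.33, -0.42 and -0.61 in Dpp4+, Icam1+ and Cd142+ cells), and Insig1, which retains SREBP in the endoplasmic reticulum, was higher in all 3 (0.26, 0.51 and 0.60). Mid1ip1, the paralogue of Thrsp, was higher in Dpp4+ fibroblasts (0.79) and Icam1+ preadipocytes (0.50). In the adipocyte-like, endothelial and mural barcodes, edgeR and DESeq2 called 0 of the 24, 41 and 37 list genes tested, with age, at 3D or at 14D, while 1 to 9 had an unadjusted p under 0.05.

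The genes most like Fasn in their pattern over 36 sums of class and library were Tkt, Me1 and Chpt1 (Pearson r of log2(CPM + 1) of 0.94 each), Acaca and Pcx (0.91 each), among 8768 genes. Those most like Scd1 were Me1 (0.94), Ces1d (0.91), Ces1f (0.90), Chpt1 (0.88) and Slc25a1 (0.87), and those most like Acly were Pdhb (0.81), Dgat1 (0.75), Abcd2 (0.74), Tmem120a (0.74) and Acaca (0.74). With adipocyte-only sums in place of adipocyte-like ones (10257 genes), Acaca, Tkt and Chpt1 were most like Fasn (0.98 each) and Me1 most like Scd1 (0.98). The 5 genes most like Acly all changed, to Mtch2 (0.91), Romo1 (0.88), Crls1, Pcca and Pgam1 (0.87 each). These are descriptions, since the sums share libraries and 6 of them are the adipocyte-like or adipocyte-only barcodes.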

How the data were processed

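Stromal vascular cells of iWAT were measured by droplet single-cell RNA-seq (10x Genomics 3′ v3.1). The authors aligned reads to mm10 and counted UMIs with Cell Ranger, and deposited filtered matrices of raw counts, 1 per library (the submitters' notes also name R 4.1.1 and Seurat). The genes, pathway lists and marker lists were chosen with earlier results of these data known. Barcodes with more than 200 genes, log10 UMIs and genes within 3 median absolute deviations, and mitochondrial share at most 3 above the median were kept, and doublets were not called. Classes needed at least 3 adipocyte, 5 endothelial, 10 mural, 6 Schwann or 5 immune marker UMIs, or 0.8% pan-ASPC UMIs, then 10 subset UMIs, in the order adipocyte-like, immune, Schwann, vascular, ASPC. The Dpp4+ and Icam1+ lists had to exceed each other 2 times, and Cd142+ needed 0.1% of UMIs. UMIs were summed per library and class and tested over all genes with edgeR 4.0.16 (R 4.3.3), TMM, filterByExpr, age plus temperature, Benjamini-Hochberg at 0.05, with 2 residual degrees of freedom. SE is the absolute log2 fold change over the square root of F. DESeq2 1.42.0, RLE factors, no low-count filter, no second factor, stricter gates, no mixed barcodes, no deviation filter and leaving out each library were the alternatives. Leaving out mixed barcodes could not change the ASPC results, since the order of gates already kept the 3 ASPC classes free of barcodes that passed another gate. The age fit was run on simulated counts for the Icam1+, endothelial and adipocyte-like sums, and the other fits were not. Classes with under 20 barcodes in a library were not tested alone. The rule was to name all 10 members in every tested class, and in the adipocyte-like, endothelial and mural tests some that did not pass are given as counts only; of each list at most 4 genes per comparison, those past the threshold with the largest change.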

Additional observations from a re-analysis of the deposited data

Results flagged for a closer look

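The responses below were picked out because the difference between classes was itself tested and passed edgeR's adjusted threshold. The age effect on Elovl6 in Icam1+ preadipocytes less that in Dpp4+ fibroblasts was -0.76 ± 0.18 on the log2 scale (edgeR adjusted p = 0.0211), and -0.78 (adjusted p = 0.0754) when the fit held adipocyte-only in place of adipocyte-like barcodes. The cold effect on Scd1 in endothelial cells exceeded that in Dpp4+ fibroblasts by 1.41, in Icam1+ preadipocytes by 1.49 and in Cd142+ fibroblasts by 1.31, and the cold effect on Me1 exceeded that in Icam1+ preadipocytes by 1.32. Each of these 4 rested on both TN libraries, as given above. In endothelial barcodes with no adipocyte-gate UMI the Scd1 differences were 1.49, 1.56 and 1.40 (edgeR adjusted p = 0.00196, 0.00155 and 0.0112) and the Me1 difference from Icam1+ preadipocytes was 1.49 (adjusted p = 0.014). The 10 adipocyte check genes stood at 291 to 542 CPM in those barcodes, and their part in the differences was not tested.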

How the results depend on the processing

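No paired analysis was possible because each age and temperature had 1 library and the labels carry no replicate numbers. The age counts of called members (adipocyte-like 0, Dpp4+ 1, Icam1+ 2, Cd142+ 1, endothelial 0, mural 0) became 0 in Dpp4+ by DESeq2, 0 in Dpp4+, Icam1+ and Cd142+ with no term for temperature, and 3 in Icam1+, 2 in Cd142+ and 2 in endothelial cells with no low-count filter. The temperature counts (0, 3, 5, 2, 1 and 0 in the same order) became 4, 6, 10, 3, 3 and 2 with no low-count filter, and 0 in the 4 classes with calls when age was left out of the fit. By DESeq2 they became 3 in Icam1+ and 1 in Cd142+, with a stricter gate 1 in Cd142+ and 3 in endothelial cells, with mixed barcodes left out 2 in endothelial cells, and with no deviation filter 5 in adipocyte-like, 3 in endothelial and 1 in mural barcodes. The age-by-class difference of Elovl6, the 1 called, became 0 with adipocyte-only barcodes. Leaving out 1 library at a time gave age counts of 0 to 1 in adipocyte-like, 0 to 1 in Dpp4+, 2 to 3 in Icam1+, 1 in Cd142+, 0 to 1 in endothelial and 0 in mural barcodes, and temperature counts of 0 to 4, 3 to 7, 1 to 9, 1 to 3, 0 to 3 and 0 to 2. It gave 0 to 2 age-by-class differences, an aged less young share of 0.0975 to 0.348 percentage points, and 0 calls of age by cold in 4 fits per class, since a fit without a TN library could not be had. These fits had 1 residual degree of freedom. No value changed sign, and the causes of the other shifts were not tested. The stricter gate and the removal of mixed barcodes could not be run for adipocyte-like barcodes, which then numbered under 20 in a library. Outside the sets added after the data were seen, DESeq2 gave no adjusted p for 3 of the 26 member calls. Low transcripts (Mlxipl, ASPC Thrsp) and the adipocyte-only set were limited by UMIs, and age, temperature and library could be separated only as far as 1 library per group allows.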
